A study of Rattus norvegicus with 8 samples.

Results

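Cldn4, Tgm1 and Sprr1a are genes best known from epithelial barriers, and here they were followed in dorsal root ganglia of the rat, which hold the cell bodies of sensory neurons. They were chosen by gene symbol as deposited (Cldn4, Tgm1 and Sprr1al, a synonym of Sprr1a in RefSeq), because earlier results of these data had shown them higher after nerve ligation. They make up 3 of the 10746 genes with a name and a tested probe, and 4 of the 22379 tested probes, since Sprr1al had 2 probes. Because the ligation contrast chose them, their differences between the groups are given as a description, with no test.

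Claudins are membrane proteins that seal the gap between neighbouring cells at tight junctions. Tgm1, transglutaminase 1, is the enzyme that crosslinks proteins into the cornified envelope of keratinocytes, the tough shell of the skin surface. Sprr1a, small proline-rich protein 1A, is one of the envelope precursors joined by such crosslinks, and it is also known from injured sensory neurons, where it has been tied to axon growth.

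The ligation group held 4 ipsilateral samples, taken 7 days after spinal nerves had been tied off, an injury that elicits neuropathic pain, in rats of the Sprague Dawley strain. The control group held 4 samples of the same strain that the labels call contralateral in the titles and sham-operated in the descriptions, so side and operation cannot be told apart. Each sample was pooled from 2 animals, so p-values measure the spread between pools, and no sex or age is given in the labels used here. Each was labelled with Cy5 and hybridised on 1 two-colour array against a Cy3-labelled pool of control contralateral ganglia, with no dye swap, and the unit of comparison is the log2 ratio of sample over pool. Whole ganglia hold several cell types, so a change in the share of a cell type and a change in RNA per cell cannot be told apart. Sample intensities had medians of 0.21 to 0.22 on ligation arrays and 0.17 to 0.20 on control arrays, on a relative scale that the authors deposited with 2 decimals, and more finely below 0.01. Dim probes therefore move in coarse steps, and the range that rounding alone allows is given for the 3 genes and for several dim genes of the lists. Of all tested probes, 58.6% passed the test between the groups (limma, Benjamini-Hochberg adjusted p under 0.05), 26.4% as higher and 32.2% as lower in ligation, and 4.67% and 3.41% did so with at least a 2-fold change. Of 14 macrophage markers 12 rose and 0 fell, with C1qa (complement) 7.18-fold and Lyz2 (lysozyme) 3.37-fold higher, and their summed sample intensity was 78.0 to 85.4 in ligation and 15.5 to 17.5 in control. Of 8 measured sensory neuron markers 7 fell, among them Nefh (neurofilament heavy chain), and their summed sample intensity was 15.9 to 19.5 in ligation and 35.9 to 40.6 in control. The part of these marker shifts in the values below was not tested.

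Cldn4 ranked 2 among all tested probes by how far ligation exceeded control. Its sample intensity was 3.00, 3.26, 2.37 and 2.74 in ligation replicates 1 to 4, against 0.02 in each of the 4 control samples. All 4 ligation samples lay far above all 4 control samples, and in control the probe stood near the bottom of the intensity scale. The log2 ratio averaged 4.56 ± 0.26 in ligation and -1.75 ± 0.11 in control (SD, n = 4 each). The difference was 6.31, or 79.4-fold, and rounding alone allowed 56.3-fold to 119-fold. It was 31.7-fold with intensities below 0.05 set to 0.05 and 51.5-fold under quantile normalization between arrays. That normalization gives every array the same distribution of ratios. Before it, the SD of log2 ratios was 0.59 to 0.63 on ligation arrays and 0.18 to 0.22 on control arrays. Calls lost under it, here and below, carry that limit.

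Tgm1 showed the same separation at lower intensity. Its sample intensity was 1.24, 1.02, 0.96 and 1.48 in ligation replicates 1 to 4, against 0.03, 0.03, 0.03 and 0.02 in control replicates 1 to 4. The groups did not overlap, and the spread within ligation was small beside the gap. The log2 ratio averaged 3.66 ± 0.13 in ligation and -0.99 ± 0.20 in control (SD, n = 4 each). This is a difference of 4.65, or 25.03-fold, with rounding bounds of 18.01-fold to 35.9-fold, and it ranked 8 on the same list. The floor at 0.05 gave 14.3-fold and quantile normalization 15.4-fold.

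Sprr1al was measured by 2 probes that gave very different sizes. On the probe with accession g3018790 the sample intensity was 0.59, 0.40, 0.43 and 0.69 in ligation replicates 1 to 4, against 0.01, 0.02, 0.02 and 0.01 in control replicates 1 to 4. Its log2 ratio averaged 3.30 ± 0.29 in ligation and -0.79 ± 0.24 in control (SD, n = 4 each), a difference of 4.09. This is 17.03-fold, with rounding bounds of 8.88-fold to 26.6-fold, and it ranked 12. With the floor it was 9.83-fold, and under quantile normalization 11.1-fold. On the probe with accession ENSRNOT00000012174 the sample intensity was 0.16, 0.16, 0.16 and 0.20 in ligation replicates 1 to 4, against 0.06, 0.09, 0.09 and 0.05 in control replicates 1 to 4. Both probes kept the groups apart, but the second differed by only 1.88-fold (log2 difference 0.91, rounding bounds 0.58 to 1.24) and ranked 1242. The bounds of the probes do not meet, so rounding does not account for the gap between them.

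The groups of arrays did not overlap for any of the 4 probes. The same held for 53.3% of all tested probes, and for 24.3% with ligation higher, so separation of the groups was common on these arrays and is no finding about the 3 genes.

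**Figure D1:**
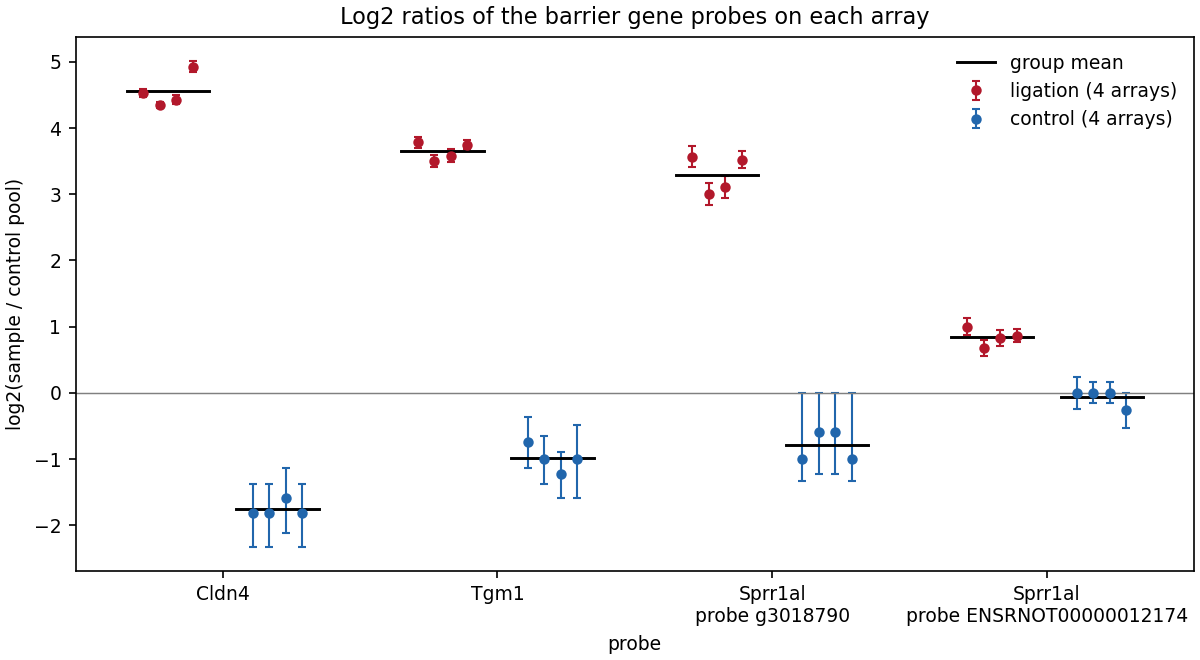
Log2 ratio of sample over control pool on each array (vertical axis) for the 4 probes (horizontal axis), ligation in red and control in blue; points are arrays 1 to 4, vertical bars the range that rounding of the intensities allows, black lines the group means. The ligation points of Cldn4 lie between 4.35 and 4.93 and its control points between -1.81 and -1.58, whereas the 2 Sprr1al probes reach mean ratios of 3.30 and 0.84 in ligation.

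RefSeq places Sprr1a beside close relatives, with Sprr3 and Sprr4 as its nearest protein-coding neighbours and Sprr1b next after Sprr3 (GRCr8). Sprr1b is also listed among the older names of Sprr1a, and no probe was named Sprr1b. The files hold no probe sequences, so which of these genes each Sprr1al probe matches was not tested, and both values carry that doubt.

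The promoters of Sprr1a, its relative Sprr1b and Tgm1 are shown because the AP-1 factors of the Jun and Fos families, which bind the motif TGANTCA, are known to act on SPRR promoters in human keratinocytes. Each sequence is the 250 bases before the annotated start, 5′ to 3′ on the minus strand of GRCr8, from RefSeq, at chr2:180752626-180752875 for Sprr1a, chr2:180706356-180706605 for Sprr1b and chr15:33174268-33174517 for Tgm1. Capitals mark matches to TGANTCA on either strand.
Sprr1a: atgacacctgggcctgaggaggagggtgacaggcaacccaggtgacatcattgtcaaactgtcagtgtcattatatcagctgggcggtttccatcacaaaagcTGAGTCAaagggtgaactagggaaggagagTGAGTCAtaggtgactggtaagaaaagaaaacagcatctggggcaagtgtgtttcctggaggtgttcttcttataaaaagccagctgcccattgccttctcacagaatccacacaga
Sprr1b: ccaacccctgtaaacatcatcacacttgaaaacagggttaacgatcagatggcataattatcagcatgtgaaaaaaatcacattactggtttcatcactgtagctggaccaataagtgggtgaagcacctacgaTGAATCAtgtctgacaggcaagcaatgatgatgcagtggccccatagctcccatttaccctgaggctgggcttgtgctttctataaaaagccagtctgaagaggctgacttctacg
Tgm1: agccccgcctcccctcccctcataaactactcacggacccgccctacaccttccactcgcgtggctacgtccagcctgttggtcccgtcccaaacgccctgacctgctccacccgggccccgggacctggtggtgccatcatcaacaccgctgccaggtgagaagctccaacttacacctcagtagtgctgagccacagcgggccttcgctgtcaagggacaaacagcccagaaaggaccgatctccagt

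The Sprr1a window held TGANTCA at 2 positions, which begin 147 and 117 bases before the start, and both read TGAGTCA. Sprr1b held it at 1 position, 116 bases before the start, read as TGAATCA. The Tgm1 window held 0. At least 1 match was found in 6.34% of the 33469 windows of this length in the table, and at least 2 in 0.311%. The CRE motif TGACGTCA, bound by ATF and CREB proteins and present in 1.59% of windows, was in none of the 3. TATAAA lay 46 bases before the Sprr1a start and 35 before that of Sprr1b, and 12.9% of windows held it. Such matches describe letters and do not show binding. No promoter sequence for Cldn4 was among those available here, so its promoter was not searched.

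The control samples themselves lay below the pool for Cldn4, Tgm1 and the g3018790 probe of Sprr1al, although the pool is labelled as control tissue too. The pool read 0.07, 0.07, 0.06 and 0.07 for Cldn4 on control arrays 1 to 4, against 0.02 in each control sample on them. The authors' deposited table gave p-values from 2.81e-08 to 1.1e-19 for these 4 ratios. For Tgm1 its values lay between 0.00131 and 3.06e-07 on the control arrays. For the g3018790 probe of Sprr1al the authors' deposited table gave 0.06 to 0.30 there, and for the ENSRNOT00000012174 probe 0.78 to 0.99, where the mean ratio was -0.07 ± 0.13 (SD, n = 4). A control ratio as low as that of Cldn4 was found for 25 of 22379 probes (0.112%), as low as that of Tgm1 for 52 (0.232%) and as low as that of g3018790 for 64 (0.286%). The pattern was not particular to these genes: of the 173 probes whose mean ligation ratio was over 2, 155 had a mean control ratio below 0, with a median of -0.26. Of the 130 probes whose mean ligation ratio was under -2, 75 had a mean control ratio above 0, with a median of 0.01. Over all 22379 tested probes, 8341 had a mean control ratio below 0 and 11170 above 0. The 10 measured skeletal muscle markers lay far below the pool in both groups. Their median log2 ratio was -3.94 to -3.19 on ligation arrays and -3.39 to -2.59 on control arrays. Pool and control samples thus differed in muscle markers as well, and what else set them apart was not tested. The ratios of both groups share the pool.

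The reading of the pool also differed between the arrays. For Cldn4 the pool channel read 0.13, 0.16, 0.11 and 0.09 on ligation arrays 1 to 4, against 0.06 to 0.07 on the control arrays. All 4 ligation arrays were higher, although the labels name the same pool for each. Relative to each array's median, the pool channel differed by 0.63 on the log2 scale for Cldn4, 0.57 for Tgm1 and 0.89 for the g3018790 probe of Sprr1al, but by 0.16 for the ENSRNOT00000012174 probe. The median of this shift over all tested probes was 0.01, and shifts at least as high as those of Cldn4, Tgm1 and the g3018790 probe were found for 0.402%, 0.608% and 0.0626% of probes. Over the 27 probes with a mean ligation ratio over 3, the median shift was 0.17. In the sample channel alone, centred on each array's median, the log2 differences were 6.92 for Cldn4, 5.19 for Tgm1, 4.96 for the g3018790 probe and 1.05 for the other, larger for each than the ratio gave. What moved the pool channel was not tested.

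**Figure D2:**
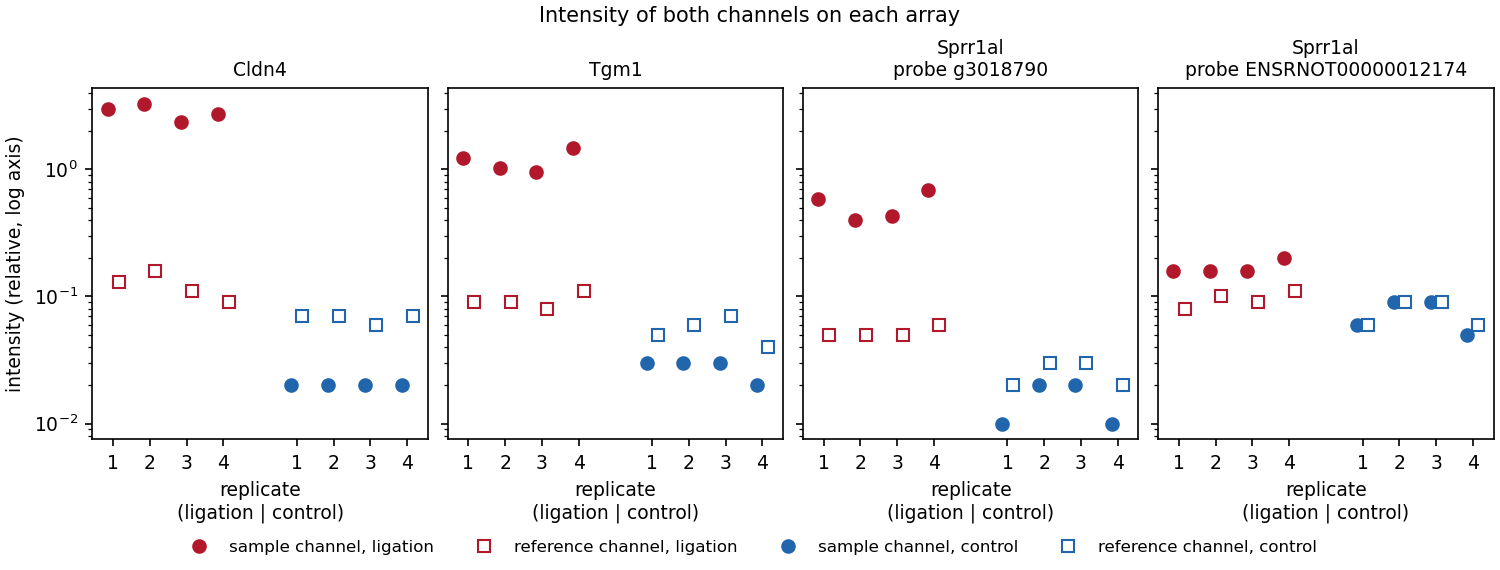
Intensity on a relative scale (vertical log axis) of the sample channel (filled circles) and the pool or reference channel (open squares) for each replicate (horizontal axis), ligation in red on the left and control in blue on the right of each panel. The reference squares of Cldn4 lie at 0.09 to 0.16 on ligation arrays and 0.06 to 0.07 on control arrays, and the control samples of Cldn4 lie below their squares at 0.02.

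Within the ligation group the ratios of the 4 probes shared part of their order: replicates 1 and 4 lay above replicates 2 and 3 for each of them. For the g3018790 probe the log2 ratios were 3.56 and 3.52 in ligation replicates 1 and 4, and 3.00 and 3.10 in replicates 2 and 3. For Tgm1 they were 3.78 and 3.75, in replicates 1 and 4, and 3.50 and 3.58 in replicates 2 and 3. The order was taken from these same values, so the shares that follow are a description with no test. It was found for 20.9% of all tested probes and for 14.5% of the 1046 probes that passed as higher with at least a 2-fold difference. Rounding bounds of replicates 1 or 4 met those of replicate 3 for Cldn4, Tgm1 and the ENSRNOT00000012174 probe. In the sample channel Cldn4 and the ENSRNOT00000012174 probe did not keep the order: replicate 2 was the brightest for Cldn4 at 3.26, and replicates 1 to 3 were equal at 0.16 for ENSRNOT00000012174.

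The genes most like each member were found as the named genes with the smallest root mean square difference of log2 ratios over the 8 arrays. Nearest to Cldn4 were Serpina3n (a protease inhibitor, 0.44), Atf3 (a stress transcription factor, 0.72) and Il24 (a cytokine, 0.72). Nearest to Tgm1 were Npy (neuropeptide Y, 0.26), Ankrd1 (an ankyrin repeat protein best known from muscle, 0.34) and the g3018790 probe of Sprr1al (0.39). Nearest to that probe were Sdc1 (the heparan sulphate proteoglycan syndecan 1, 0.27), Npy (0.28) and Fcgr2b (an inhibitory Fc receptor, 0.38). The ENSRNOT00000012174 probe lay 1.82 from the other Sprr1al probe and nearest to Edrf1 (0.08), Pmfbp1 (0.08) and Plat (tissue plasminogen activator, 0.09). These distances reflect mostly the size of the group difference, and they are a description with no test.

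Genes that lie beside Cldn4 and Tgm1 on the chromosome did not show differences of that size. Cldn3, the next protein-coding gene to Cldn4 in GRCr8 and itself a sealing claudin, moved the opposite way. Its sample intensity was 0.03, 0.04, 0.06 and 0.03 in ligation replicates 1 to 4, against 0.31, 0.26, 0.29 and 0.31 in control replicates 1 to 4. All ligation samples were lower than all control samples, and the pool channel differed little, at 0.33 to 0.35 on the ligation arrays and 0.29 on the control arrays. Cldn3 fell 8.85-fold (log2 change -3.15 ± 0.24, SE, n = 4 each, limma adjusted p = 2.41e-05). Of the 8 measured genes among the 6 on each side of Cldn4, 4 fell and 0 rose, Limk1 (LIM kinase 1, a regulator of actin) by 1.27 on the log2 scale and Bud23 by 0.28. Of 10 measured genes around Tgm1, 2 rose and 3 fell, with changes between -0.33 and 0.27. Of all genes 66.1% passed, 30.2% as higher and 35.9% as lower, so these counts say nothing particular to the neighbours. Around Sprr1a only Ivl (involucrin, another envelope precursor, -0.44, adjusted p = 0.241) and Smcp (0.05, adjusted p = 0.873) were measured, and neither passed. Ivl was dim, at mean sample intensities of 0.02 in ligation and 0.03 in control, with rounding bounds of -1.49 to 0.76.

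**Figure D3:**
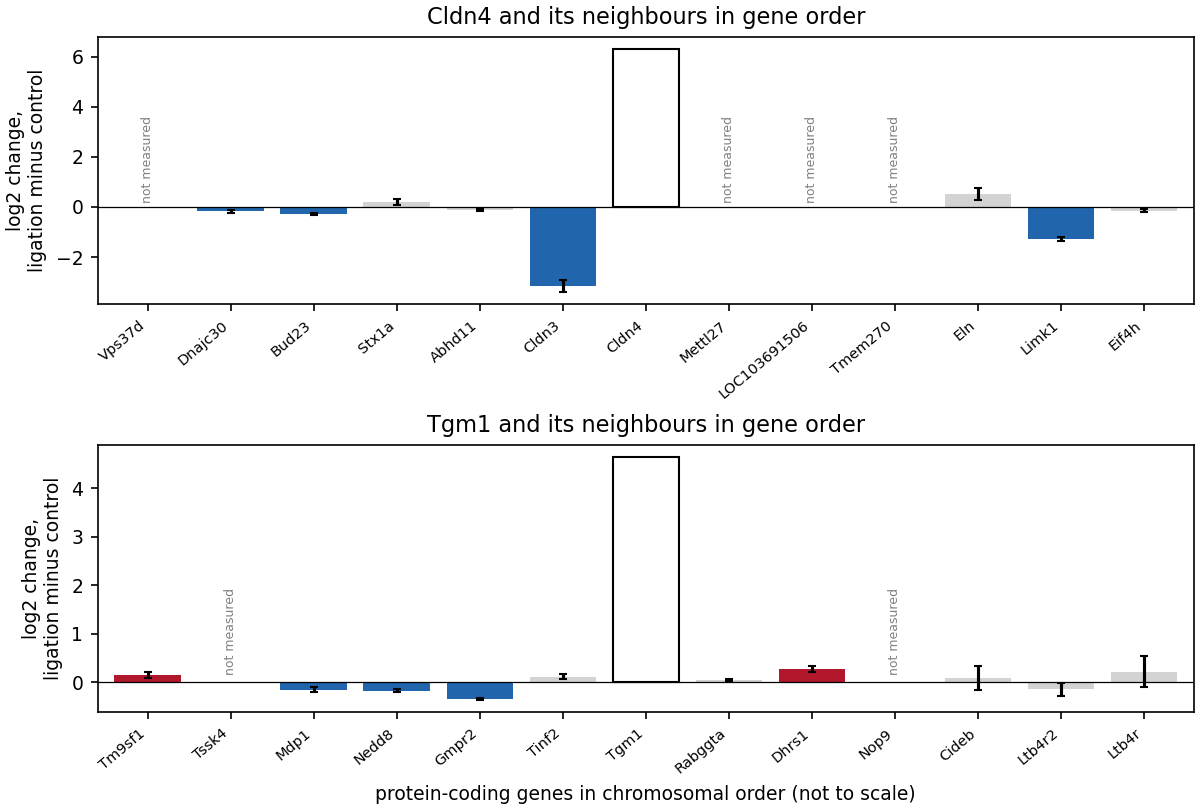
Log2 change, ligation minus control (vertical axis), of the 6 protein-coding genes on each side of Cldn4 (top) and Tgm1 (bottom) in chromosomal order (horizontal axis, not to scale); error bars are SE, red and blue bars passed the test as higher and lower, grey bars did not pass, and the open bar is the member, which was not tested. Cldn3 at -3.15 stands next to Cldn4 at 6.31, and the genes around Tgm1 lie between -0.33 and 0.27.

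The other tight junction genes changed in both directions. Of 33 measured among 47 listed, 14 rose (42.4%) and 12 fell (36.4%), against 30.2% and 35.9% of all 10746 genes. Under quantile normalization 4 were called higher and 9 lower, and in the sample channel alone 9 were called higher. Over all 22379 probes, higher calls went from 5897 to 3043 under quantile normalization and to 4246 in the sample channel alone. Lower calls over all probes went from 7208 to 3324 under quantile normalization. With at least a 2-fold change 3 of the list rose and 5 fell, against 6.48% and 4.7% of all genes, and the median log2 change was 0.05 against -0.05 over all genes. Of the 9 other claudins measured, 5 rose, 2 fell and 2 did not pass. Cldn7 had a sample intensity of 0.10, 0.09, 0.07 and 0.11 in ligation replicates 1 to 4, against 0.02 to 0.03 in control. Cldn7 was 2.21-fold higher and passed (adjusted p = 3.6e-04), and rounding allowed a log2 change of 0.30 to 2.01. Cldn14 rose 1.75-fold (rounding bounds 1.17-fold to 2.64-fold) and Cldn1 1.90-fold, while Cldn3 fell as given above. Cldn10 passed as lower by 1.14-fold in the ratio (adjusted p = 5.18e-04), but not by a dimmer sample channel. Its mean sample intensity was 0.285 in ligation and 0.2325 in control, and its mean pool reading 0.3175 and 0.2275. Cldn11, the claudin of myelin, passed as higher by 0.30 on the log2 scale, with rounding bounds of -0.39 to 0.99 that include 0, and Cldn15 (0.05, adjusted p = 0.404) and Cldn16 (0.15, adjusted p = 0.389) did not pass. The strand protein gene Ocln (occludin) passed as higher 2.08-fold (adjusted p = 3.83e-06), but on intensities of 0.06 to 0.07 in ligation, with rounding bounds of -0.02 to 2.17.

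Among the other junction genes, Tjp1 (ZO-1) rose 1.60-fold on its brighter probe (adjusted p = 3.91e-06), while its other probe, at a log2 change of 0.06, did not pass (adjusted p = 0.769). Amotl1 (angiomotin-like 1) rose 1.43-fold, and Ybx3, a Y-box protein that binds ZO-1, rose 2.22-fold. Patj, a scaffold of the Crumbs polarity complex, fell 9.10-fold (log2 change -3.19 ± 0.15, SE, adjusted p = 3.25e-06), and its second probe gave -3.21. Its sample intensity was 0.27 to 0.42 in ligation and 2.39 to 2.46 in control. Crb3 (Crumbs 3, 2.64-fold, rounding bounds -2.31 to -0.58), Magi3 (2.08-fold) and Pard6a (2.05-fold) fell too. The polarity gene Pard3 passed as higher on its brighter probe (0.28, adjusted p = 0.00619), but its other probe did not pass (-0.04, adjusted p = 0.686). Pard6b did not pass on its brighter probe (-0.05, adjusted p = 0.376), whereas its other probe passed as lower (-0.73, adjusted p = 2.64e-04). Pals1 (0.04, adjusted p = 0.35) did not pass. Tjp1 and Amotl1 lost their calls under quantile normalization between arrays, and Crb3 and Cldn11 lost theirs with dim intensities raised to 0.05. Cldn11 also lost its call in the sample channel alone (0.32, adjusted p = 0.0709).

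Of the cornified envelope list, 13 of 42 genes were measured, of which 2 rose (15.4%) and 3 fell (23.1%), against 30.2% and 35.9% of all genes, with a median log2 change of 0.00. With at least a 2-fold change 2 of the 13 rose and 0 fell, against 6.48% and 4.7% of all genes. The count of genes called lower at any size was 1 under quantile normalization and 5 in the sample channel alone. Over all probes, lower calls went from 7208 to 3324 and 5227 in these settings. The transglutaminase family was covered by Tgm2, F13a1 and Tgm4 besides Tgm1. Tgm2, the tissue transglutaminase, had a sample intensity of 0.39, 0.45, 0.68 and 0.53 in ligation replicates 1 to 4, against 0.15, 0.14, 0.19 and 0.17 in control replicates 1 to 4. The groups did not overlap, and Tgm2 rose 2.34-fold (log2 change 1.23 ± 0.15, SE, adjusted p = 2.9e-04). F13a1, the A chain of clotting factor XIII, fell 1.55-fold on its brighter probe (adjusted p = 0.00147), but changed sign under quantile normalization between arrays (0.04, adjusted p = 0.844), and its other probe did not pass (-0.12, adjusted p = 0.161). Tgm4, at a log2 change of 0.05, did not pass (adjusted p = 0.46), on mean sample intensities of only 0.012 in ligation and 0.008 in control.

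Anxa1 (annexin A1, a phospholipid-binding component of the envelope) rose 3.40-fold on one probe and by 1.70 on the log2 scale on the other. Of the envelope proteins proper, Flg (filaggrin) fell 1.17-fold and Ppl (periplakin) 1.47-fold. The call for Ppl was lost under quantile normalization, and its other probe did not pass (0.02, adjusted p = 0.465). Evpl (envoplakin, -0.08, adjusted p = 0.0873), S100a8 (0.00, adjusted p = 1) and Spink5 (0.00, adjusted p = 1) did not pass either.

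**Figure D4:**
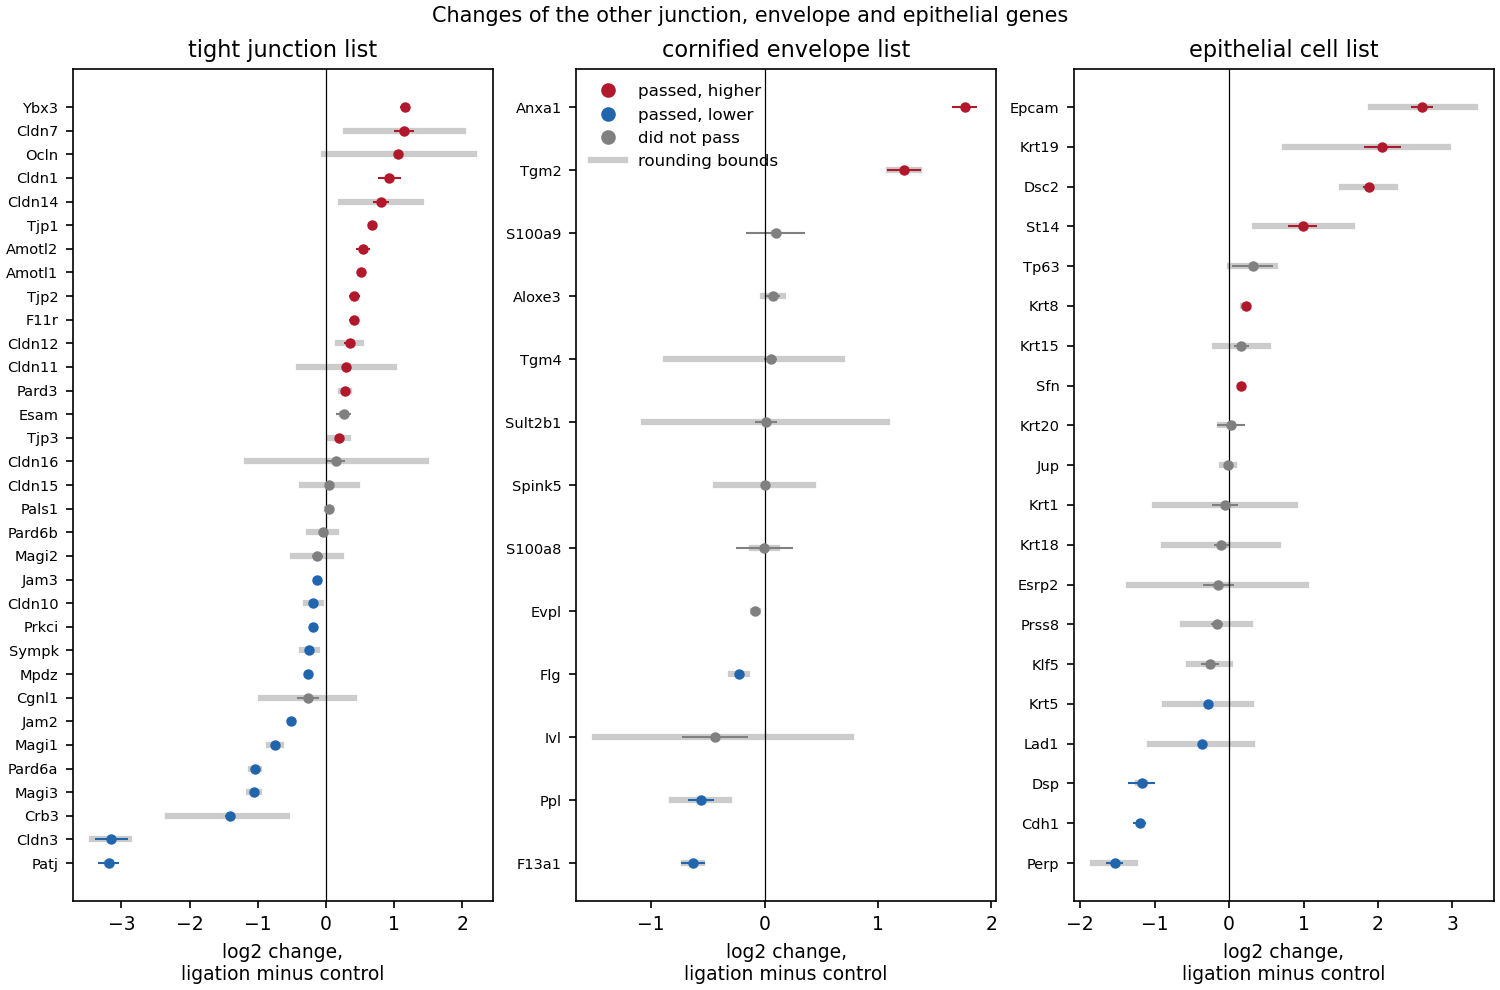
Log2 change, ligation minus control (horizontal axis), of the measured genes (vertical axis, 1 epithelial gene not shown) of the tight junction, cornified envelope and epithelial cell lists; points are the fitted changes with SE, red passed as higher, blue as lower, grey did not pass, and pale bars are the rounding bounds. Patj and Cldn3 lie at -3.19 and -3.15, Epcam at 2.59, and no gene of the envelope list goes above the 1.76 of Anxa1.

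Markers of epithelial cells, the cells in which Cldn4, Tgm1 and Sprr1a are best known, did not move as a block. Of 21 measured among 43 listed, 7 rose (33.3%) and 5 fell (23.8%), against 30.2% and 35.9% of all genes, with a median log2 change of -0.02. With at least a 2-fold change 4 of the 21 rose and 3 fell, against 6.48% and 4.7% of all genes. The summed sample intensity of the list was 11.4 to 12.1 in ligation and 13.8 to 15.05 in control, and 11 of the 21 had a mean below 0.1 in both groups. The sums given here leave out Krt15, which had values on only 2 ligation arrays. Without Cdh1 the sum was 7.35 to 8.37 in ligation and 5.85 to 6.63 in control. The count of genes called lower at any size was 3 with the floor at 0.05, where lower calls over all probes went from 7208 to 6799. Epcam, an epithelial adhesion protein that binds claudins, had a sample intensity of 0.18, 0.29, 0.28 and 0.23 in ligation replicates 1 to 4, against 0.03 in each control sample. It rose 6.02-fold (log2 change 2.59 ± 0.15, SE, adjusted p = 5.99e-06, rounding bounds 1.90 to 3.30).

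Krt19 (keratin 19) rose 4.16-fold, on sample intensities of 0.04 to 0.06 in ligation and 0.01 to 0.02 in control, with rounding bounds of 0.75 to 2.93. Its call was lost with intensities raised to 0.05. Dsc2 (desmocollin 2 of desmosomes) rose 3.67-fold (adjusted p = 1.52e-06). Krt8 (keratin 8) rose 1.17-fold, a call lost under quantile normalization and in the sample channel alone. Cdh1 (E-cadherin) fell 2.30-fold, with sample intensities of 3.37 to 4.27 in ligation and 7.58 to 8.54 in control. Dsp (desmoplakin, 2.26-fold) and Perp (2.90-fold, rounding bounds -1.83 to -1.26), both of desmosomes, fell as well, and the call for Dsp was lost under quantile normalization.

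The keratinocyte markers Krt5 (-0.28) and Lad1 (-0.37) passed as lower, but with rounding bounds that include 0. Both calls were lost with the floor at 0.05, and that of Krt5 also in the sample channel alone (adjusted p = 0.126). Tp63, the master regulator of stratified epithelium, did not pass (0.32, adjusted p = 0.375), nor did Krt1 (-0.06, adjusted p = 0.79), Krt20 (0.03, adjusted p = 0.919) or Jup (-0.02, adjusted p = 0.789). Mean sample intensities in ligation and control were 0.009 and 0.006 for Tp63, 0.008 and 0.008 for Krt20, and 0.03 and 0.03 for Krt1. These lie far below the array medians, so such probes cannot show that the genes were unchanged. Markers of satellite glia and Schwann cells, and those of skeletal muscle, gave mixed values. Of 11 glial markers 3 rose and 4 fell, with Prx (-0.61, adjusted p = 0.0771) and S100b (-0.42, adjusted p = 0.0448) the brightest. Summed intensities of the glial markers were 49.95 to 57.8 in ligation and 55.3 to 66.8 in control. These sums leave out S100b and Glul, which lacked values on some arrays. S100b had values on 3 arrays of each group. S100b lost its call in 10 of 14 alternatives. Of 10 skeletal muscle markers 1 rose and 2 fell, with Myh2 (-0.44, adjusted p = 0.418) and Tnni2 (-0.41, adjusted p = 0.0712) the brightest and summed intensities of 1.20 to 1.49 in ligation and 1.15 to 2.36 in control. Which cells of the ganglion held the Cldn4, Tgm1 and Sprr1al signal was not tested.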

How the data were processed

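Dorsal root ganglia of 4 ligation and 4 control samples were measured on 8 two-colour arrays. Per the labels' protocols, 100 ng of RNA was amplified in 2 rounds, and per the submitters' processing notes Agilent Feature Extraction 8.5.1.1 was used. For the background correction and the normalization, the sources used here give no description. Per the file headers, the deposited table held a linear intensity per channel and the authors' p-value of each ratio. The deposited log10 values equalled the log10 ratio of these intensities within 0.005 for 100% of spots. All value columns were matched to samples by name (0 unmapped). Log2 ratios were computed without further scaling, the 23557 spots were averaged to 22491 probes, and 22379 probes with values on at least 2 arrays of each group were tested with limma 3.58.1 in R 4.3.3 (two-sided, Benjamini-Hochberg over all probes). The test was checked on simulated data. Genes were named through RefSeq (GRCr8): 2955 probes by accession, 10334 by symbol and 1898 by a synonym; 321 kept the file's name and 6983 had none. A gene took its probe with the highest mean log2 intensity of both channels. Rounding bounds put each intensity at the edges of its last printed digit. The number of arrays limits the precision. Named genes were the members with every probe, the 5 list genes with the smallest adjusted p in each direction, the 2 with the smallest change, the 2 brightest genes of other lists, and the 3 nearest in pattern. Alternatives were the sample channel alone, quantile normalization between arrays, an intensity floor of 0.05 and brighter probes only. Further ones were a replicate block, limma with its trend and robust options, and leaving out each array. These make up the 14 alternatives counted for named genes, and the rounding bounds were given besides. Of the genes so named, 2 are counted in their lists but not reported here. Members and lists were chosen with earlier results of these data known. Cldn1, Cldn7, Cldn10, Cldn14, Cldn16, Pard3, Pard6b, Bud23, Limk1, Evpl, Tgm4, Ivl, Smcp, Krt1 and Tp63 were added after their values were seen. Tables were made with pandas 2.3.3 under Python 3.11.15, and figures with matplotlib 3.10.9.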

Additional observations from a re-analysis of the deposited data

Results flagged for a closer look

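Of 86 sets of 4 arrays (4 member probes and 39 named list genes in 2 groups), 12 had 1 array whose gap to the nearest other exceeded Dixon's critical value for 4 samples. Chance passes this value in about 1 in 20 sets if no values are tied. Where the other 3 values were equal, any difference of the remaining array passed, so the 12 cannot be set against that rate. For the members these were Cldn4 in control replicate 3 (log2 ratio -1.58, the other 3 at -1.81) and the ENSRNOT00000012174 probe of Sprr1al in control replicate 4 (-0.26, the other 3 at 0.00). Among tight junction genes, Cldn11 in ligation replicate 2 (0.22), Cldn15 in ligation replicate 4 (0.19), Ocln in ligation replicate 3 (1.22), Pard6a in control replicate 4 (0.027) and Crb3 in control replicate 2 (0.32) stood apart from 3 equal values. Ppl did so in ligation replicate 1 (-0.81). Among other named genes, S100a8 in ligation replicate 1 (-0.51), Krt8 in control replicate 1 (-0.12), Dsp in control replicate 4 (-0.51) and Myh2 in control replicate 2 (-2.49) stood apart.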

How the results depend on the processing

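The 4 probes of Cldn4, Tgm1 and Sprr1al stayed higher in ligation under the alternatives that follow, with other sizes. All 4 lie below the median intensity, so the setting with brighter probes only gives them no value. For Cldn4 the log2 difference was 6.92 in the sample channel alone, 5.69 under quantile normalization between arrays and 4.99 with intensities below 0.05 set to 0.05, and rounding allowed 5.81 to 6.89. For Tgm1 these values were 5.19, 3.94, 3.84 and 4.17 to 5.16. For the g3018790 probe of Sprr1al they were 4.96, 3.47, 3.30 and 3.15 to 4.73. For the ENSRNOT00000012174 probe they were 1.05 in the sample channel alone and 0.66 under quantile normalization, with 0.58 to 1.24 by rounding. Leaving out 1 array at a time gave 6.19 to 6.38 for Cldn4, 4.57 to 4.73 for Tgm1, 4.00 to 4.19 for g3018790 and 0.84 to 0.96 for ENSRNOT00000012174, and 12019 to 12730 probes passed.

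Quantile normalization left 6367 probes past the test (3043 higher, 3324 lower) against 13105, and probes above the median intensity gave 8559 (3766 higher, 4793 lower) of the fewer tested. The quantile setting evens out spreads of ratios that were wider on ligation arrays than on control arrays. Under quantile normalization 13 tight junction genes passed (4 higher) and 3 cornified envelope genes (1 lower), and F13a1 changed sign to 0.044. In the sample channel alone 9473 probes passed (4246 higher, 5227 lower), and 9 tight junction genes were higher and 5 envelope genes lower. Of epithelial genes above the median intensity 4 passed (2 higher, 2 lower). With the floor 3 epithelial genes were lower, as were 3 whose rounding bounds exclude 0, an alternative chosen after seeing the data. Except for the fewer probes tested, the cause was not tested. Over 39 named genes 531 values were recomputed, of which 500 stayed on their side of the threshold, 24 lost the call, 6 gained it and 1 called value changed sign. Among the 500, 18 values of 6 genes that had not passed changed sign.

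Samples with the same replicate number correlated at 0.0676 to 0.164 in their deviations and other pairs at -0.113 to 0.0542, and every sample correlated best with its own number, a hint from the data. The labels state no pairing and not every same-number pair exceeded the minimum of 0.1 set for it, so the numbers were not taken as pairs. With the replicate number as a block 12577 probes passed and the Cldn4 difference was 6.31. The rounding of intensities limits what dim probes can show.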
